A study of Mus musculus with 8 samples.

Results

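The SOCS family of the mouse has 8 genes, Cish and Socs1 to Socs7, which encode feedback inhibitors of cytokine signalling. They are described here in marrow multipotent progenitors of wild type mice and of mice with FLT3-ITD, an internal tandem duplication that makes the receptor tyrosine kinase FLT3 signal without its ligand. The members are all probe sets that the platform annotation gives to exactly 1 of these genes, 24 of 45101 probe sets on the array and 8 of 18193 named genes. No probe set shared between a family gene and another gene was listed. The family was chosen from measured differences between the genotypes on these same arrays, in which Socs2 stood out. Differences between genotypes within the family are therefore given as a description, with no p-value, and counts of members past the threshold of the fit over all genes stand beside the share of all genes without being read as a result.

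Both groups were female C57BL6 mice aged 8 to 10 weeks, wild type in one and FLT3-ITD in the other, and no treatment is listed. The duplication's zygosity and how it was introduced are not given in the sources used here. The cells were sorted from marrow as lineage negative, with Sca-1, c-Kit and CD48 present and CD150 absent. Each genotype had 4 samples with 1 array each, labelled 1, 2, 3 and a further 1 with the tag 037, called replicate 037 here; that one may repeat replicate 1. Nothing says that the samples came from separate mice, so the errors and p-values cover the spread of these 8 samples, which may be technical.

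Of the genes that define the sort, Kit and Cd48 read above the array median on all 8 arrays, and Slamf1, which encodes CD150, read below it on all 8. The progenitor gene Cd34 and the blood cell gene Ptprc, which were not part of the gate, also read above it on all 8. The Sca-1 gene Ly6a was not used here. Correlations between arrays were 0.964 to 0.981, except those of FLT3-ITD replicate 1, which stood apart at 0.948 to 0.960. The 3′ minus 5′ signal of the Gapdh controls, by which RNA quality is read, was 2.99 in FLT3-ITD replicate 037 and 1.82 to 2.29 elsewhere. Its mean was 1.94 ± 0.12 for wild type samples and 2.29 ± 0.50 for FLT3-ITD samples (SD of log2 values, n = 4 per genotype; exact two-sided permutation p = 0.2, where the smallest possible is 0.0286). The same signal of the beta-actin controls was 0.17 in FLT3-ITD replicate 037 and −0.48 to −0.32 elsewhere (exact two-sided permutation p = 0.657 between genotypes).

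SOCS proteins are made in response to the signals that they then dampen. Cytokine receptors activate JAK kinases, which phosphorylate STAT transcription factors, and STATs switch on SOCS genes. Each family protein carries an SH2 domain that binds phosphotyrosine and a SOCS box that binds elongins and a cullin, the core of a ubiquitin ligase. Cish and Socs2 act mainly at receptors and are known targets of STAT5, Socs1 and Socs3 also inhibit JAK kinases directly, and Socs4 to Socs7 have long amino-terminal regions and are less tied to cytokine induction. FLT3-ITD is known to activate STAT5 in blood cells.

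STAT proteins bind the motif TTCNNNGAA, where N is any base. It reads the same on both strands and was searched in the RefSeq promoter windows of assembly GRCm38.p6, each with 250 bases before and 50 after a transcription start. The family windows reported are those of Cish, Socs1, Socs3 and Socs4. Any family window on 1 further chromosome was left out of this report after the search, though the counts over all windows include it. No result is given for Socs2, Socs5, Socs6 and Socs7. The Cish window held 2 matches that did not overlap, at bases 1 to 9 and 12 to 20 counted from the start site. The Socs3 window held 1 match, at −154 to −146, and those of Socs1 and Socs4 held none. Of all 32851 windows of this length, 8.30% held at least 1 match and 0.457% held 2 or more. Stretches of 150 bases from the Cish and Socs3 windows follow, with the motif in capitals, because these windows held a match. The Cish stretch is chr9:107296529-107296678 on the plus strand, from 130 bases before the start site, and the Socs3 stretch is chr11:117969392-117969541 on the minus strand, from 175 bases before it. A match is a run of letters and not a measured binding site, and its part in the level of either gene was not tested.
Cish: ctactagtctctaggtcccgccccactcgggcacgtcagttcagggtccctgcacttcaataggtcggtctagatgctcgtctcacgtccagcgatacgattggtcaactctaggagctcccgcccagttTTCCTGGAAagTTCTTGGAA
Socs3: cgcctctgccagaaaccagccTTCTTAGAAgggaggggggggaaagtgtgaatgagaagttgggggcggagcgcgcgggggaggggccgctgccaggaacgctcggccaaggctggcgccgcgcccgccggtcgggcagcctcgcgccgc

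Socs2 was higher in FLT3-ITD on all 6 of its probe sets, and Cish on its single one. The other 6 genes had 17 probe sets, whose differences lay between −0.58 and 0.58 on the log2 scale and whose genotypes all overlapped. In 6 of the 24 probe sets every FLT3-ITD value lay above every wild type value, and in none below. Over the 34945 probe sets with exactly 1 gene, 5.24% did not overlap in either direction and 3.07% lay wholly higher in FLT3-ITD. In the limma comparison (a linear model with moderated variances; Benjamini-Hochberg adjusted p of 0.05), 3 of the 24 passed, all of Socs2, against 0.157% of all such probe sets. These shares describe the contrast that led to the choice of the family, and nothing is read from them.

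**Figure D1:**
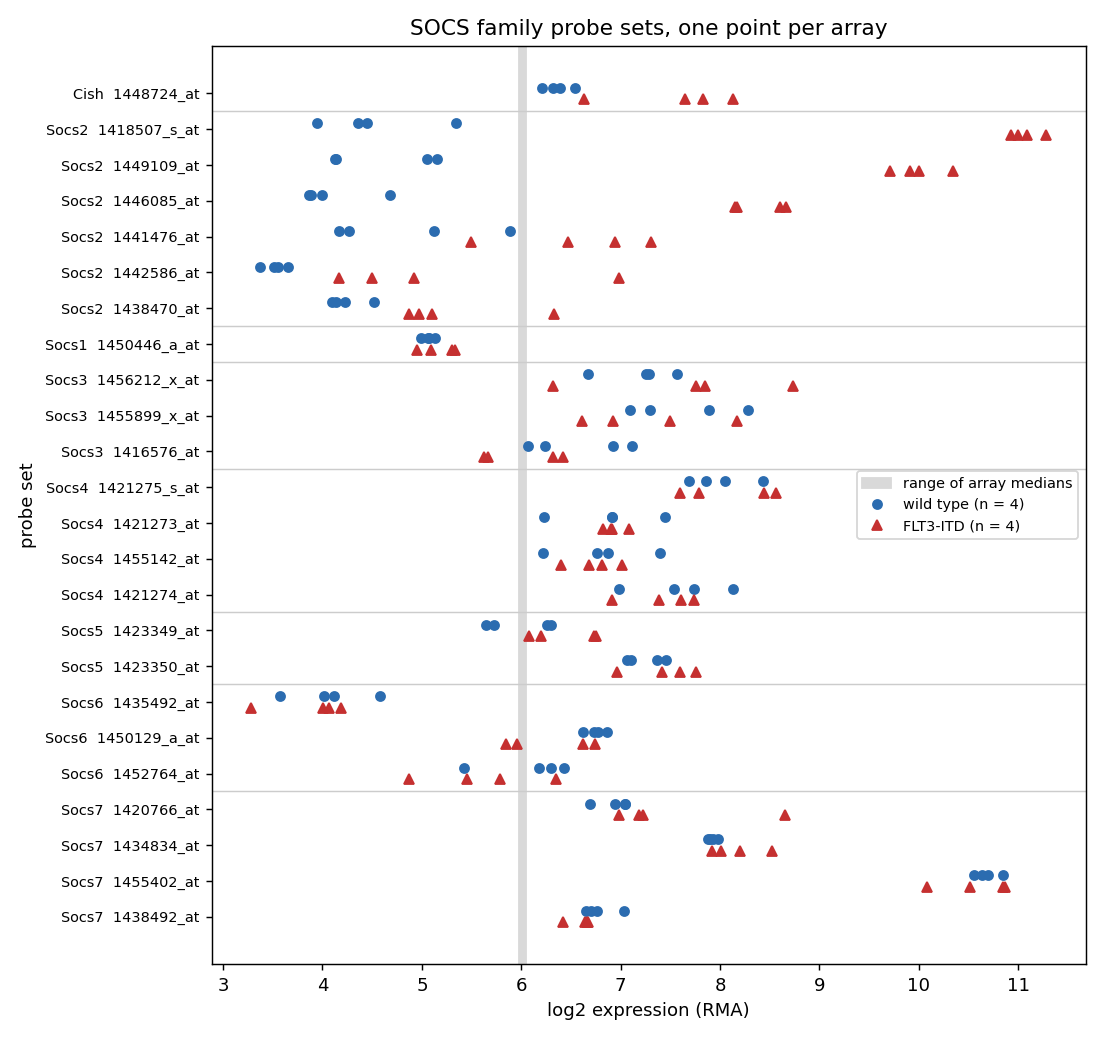
Log2 expression of the 24 SOCS family probe sets, with one blue circle per wild type array and one red triangle per FLT3-ITD array (n = 4 each); the grey band spans the array medians, 5.98 to 6.05. On 3 Socs2 probe sets the FLT3-ITD values lie between 8.15 and 11.28, and all wild type values of Socs2 lie at or below 5.89, left of the band.

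Socs2 binds activated receptors, among them the growth hormone receptor, and targets them for degradation. Probe set 1418507_s_at, the one with the highest mean, read 4.45, 5.34, 3.94 and 4.36 in wild type replicates 1, 2, 3 and 037. In FLT3-ITD replicates 1, 2, 3 and 037 it read 10.93, 11.09, 11.28 and 11.00. The genotypes were separated by a gap of 5.58 between the highest wild type and the lowest FLT3-ITD value. The difference was 6.55 ± 0.27 (log2, SE of the fit), or 93.6-fold, and was the largest of 34945. RMA compresses differences at low signal, and an unspecific signal is part of a dim value, so this fold is that of the deposited values and not of transcript numbers.

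The second largest difference of all was that of another Socs2 probe set, 1449109_at. It read 5.15, 4.14, 5.05 and 4.13 in wild type and 9.91, 10.00, 10.34 and 9.71 in FLT3-ITD, in the same order of replicates, which gives 5.38 ± 0.27 (log2, SE). Probe set 1446085_at read 3.87, 3.89, 4.68 and 3.99 in wild type and 8.17, 8.60, 8.66 and 8.15 in FLT3-ITD, a difference of 4.29 ± 0.22 that ranked as number 8. In all 3 the FLT3-ITD values were tight, with SDs of 0.15 to 0.27, while the wild type SDs were 0.39 to 0.59. The wild type values did not rise and fall together on every pair of Socs2 probe sets. Wild type replicate 2 was highest on 1418507_s_at at 5.34 and near the lowest on 1449109_at at 4.14. On 1441476_at the wild type samples ranked as on 1449109_at, at 5.89, 4.27, 5.12 and 4.17 in replicates 1, 2, 3 and 037.

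The remaining 3 Socs2 probe sets gave smaller differences. On 1441476_at the genotypes overlapped, since wild type replicate 1 read 5.89 and FLT3-ITD replicate 037 read 5.50; the means were 4.86 ± 0.81 and 6.56 ± 0.78 (log2, SD, n = 4 each), a difference of 1.69 ± 0.48 (SE). On 1442586_at FLT3-ITD replicate 3 read 6.99 and the other FLT3-ITD samples 4.17 to 4.92, with wild type between 3.37 and 3.65. On 1438470_at FLT3-ITD replicate 1 read 6.33 and the other FLT3-ITD samples 4.87 to 5.10, with wild type between 4.10 and 4.51. A single sample thus carried much of the mean of each of the latter; without FLT3-ITD replicate 1 the difference on 1438470_at was 0.74 instead of 1.08. As a mean over all 6 probe sets, Socs2 was higher by 3.43 ± 0.19 (log2, SE). Every wild type value of every Socs2 probe set lay below the median of its array, so the gene passed the filter on dim probe sets through the FLT3-ITD arrays alone.

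**Figure D2:**
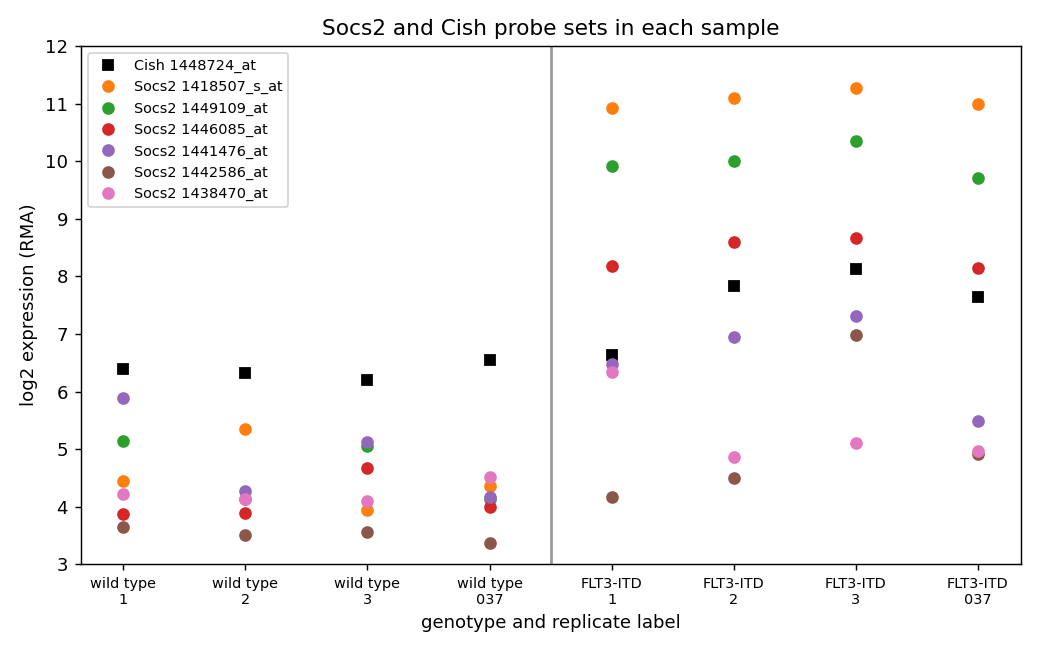
Log2 expression of the 6 Socs2 probe sets (coloured circles) and the Cish probe set (black squares) in each sample, by genotype and replicate label. FLT3-ITD replicate 1 carries Socs2 1418507_s_at at 10.93, near the other FLT3-ITD samples, but Cish at 6.63, near the wild type range of 6.21 to 6.54.

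Cish, which masks STAT5 docking sites on receptors, has 1 probe set, 1448724_at. It read 6.39, 6.32, 6.21 and 6.54 in wild type replicates 1, 2, 3 and 037 and 6.63, 7.83, 8.13 and 7.65 in the FLT3-ITD replicates in the same order. FLT3-ITD replicate 1 lay only 0.08 above the highest wild type value, while the other 3 read 7.65 to 8.13. The means were 6.37 ± 0.14 and 7.56 ± 0.65 (SD of log2 values, 4 samples each), apart by 1.19 ± 0.29 (SE) or 2.29-fold. Without FLT3-ITD replicate 1, the array that stood apart, the difference was 1.50. On that same array 1418507_s_at of Socs2 read 10.93, against 11.00 to 11.28 on the other FLT3-ITD arrays. The spread of Cish within FLT3-ITD was thus not seen in the brightest Socs2 probe set.

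Socs1 and Socs3 carry a short inhibitory region that blocks the JAK active site. Socs1, with 1 probe set (1450446_a_at), read 5.13, 4.99, 5.08 and 5.07 in wild type and 5.33, 5.09, 4.95 and 5.30 in FLT3-ITD. All 8 values lay below the array medians, and the difference of 0.11 ± 0.12 (log2, SE) was smaller than its error. Socs1 was the single family gene that failed the filter on dim probe sets, so a change of it could not be judged at this signal.

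Socs3, which acts on receptors of the interleukin-6 family, gave contrary directions on its 3 probe sets. On 1416576_at wild type read 6.24, 7.11, 6.07 and 6.93 and FLT3-ITD 5.66, 5.62, 6.42 and 6.32, a difference of −0.58 ± 0.29 (log2, SE). The probe set with the highest mean, 1455899_x_at, read 7.29, 8.28, 7.89 and 7.09 in wild type and 6.61, 6.92, 8.17 and 7.50 in FLT3-ITD (−0.34 ± 0.38). On 1456212_x_at wild type read 7.25, 7.57, 7.28 and 6.67 and FLT3-ITD 7.85, 6.32, 7.76 and 8.74 (0.47 ± 0.45). Sets ending in _x_at hold probes that can match other transcripts. Its highest value was that of FLT3-ITD replicate 037, the sample with the highest Gapdh value above; the part of RNA quality in it was not tested. No direction can be given for Socs3.

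Socs4 and Socs5 are close relatives best known for acting on the epidermal growth factor receptor. The 4 Socs4 probe sets differed by −0.19 to 0.09, 2 up and 2 down, each by less than its SE of 0.23 to 0.27. Socs5 was higher on both of its probe sets. Probe set 1423349_at read 6.26, 6.30, 5.73 and 5.64 in wild type and 6.08, 6.20, 6.75 and 6.73 in FLT3-ITD, a difference of 0.46 ± 0.22 (log2, SE), and 1423350_at differed by 0.19 ± 0.18. On 1423349_at only FLT3-ITD replicates 3 and 037 lay above the wild type range.

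Socs6, which binds the stem cell factor receptor KIT, was lower on all 3 of its probe sets, with overlap on each. Probe set 1450129_a_at read 6.77, 6.73, 6.86 and 6.62 in wild type and 5.96, 6.74, 6.63 and 5.85 in FLT3-ITD, a difference of −0.45 ± 0.21 (log2, SE). FLT3-ITD replicates 1 and 037 were low there, and replicates 2 and 3 lay within or at the edge of the wild type range. The other probe sets differed by −0.47 ± 0.33 (1452764_at) and, on values below the array median throughout, by −0.18 ± 0.26 (1435492_at). Without FLT3-ITD replicate 1 these 3 differences were −0.34, −0.22 and 0.02.

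Socs7, which also binds adaptor proteins of the NCK type, has 4 probe sets, 2 higher and 2 lower in FLT3-ITD. The one with the highest mean, 1455402_at, read 10.69, 10.56, 10.85 and 10.64 in wild type and 10.85, 10.08, 10.52 and 10.87 in FLT3-ITD (−0.10 ± 0.19). The highest difference in the gene, 0.58 ± 0.34 on 1420766_at, came from FLT3-ITD replicate 1 at 8.65, against 6.99 to 7.22 in the remaining FLT3-ITD samples and 6.69 to 7.05 in wild type. Without that replicate it was 0.20. Probe sets 1434834_at and 1438492_at differed by 0.24 ± 0.14 and −0.19 ± 0.12.

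**Figure D3:**
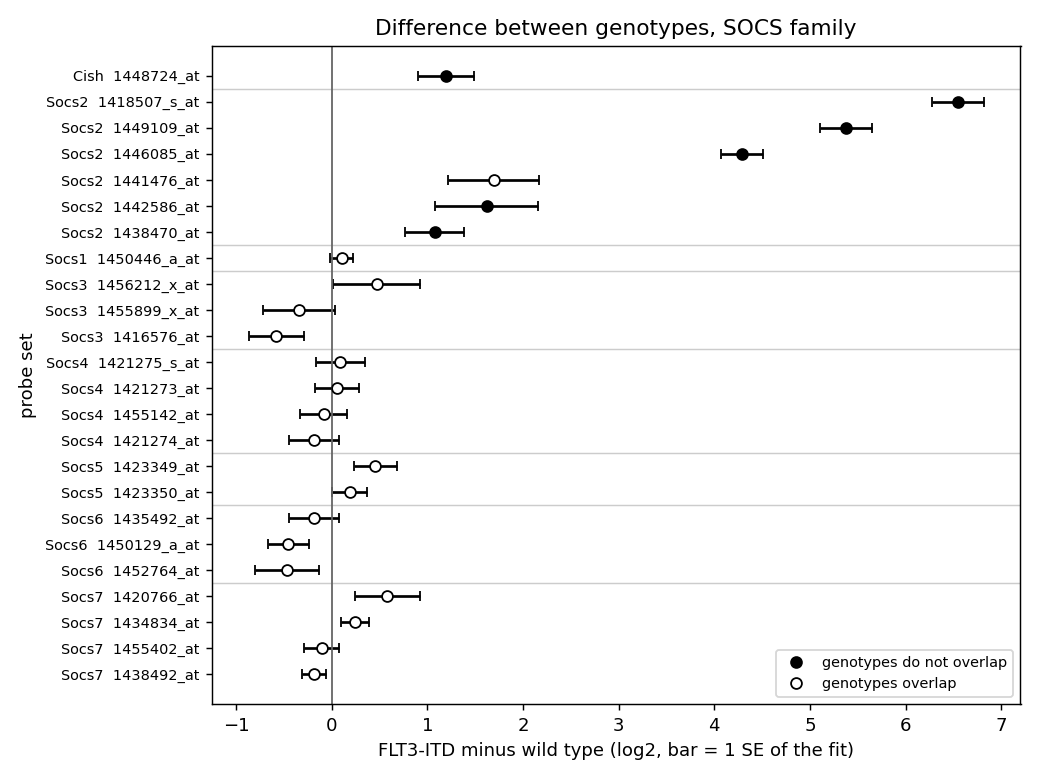
Difference FLT3-ITD minus wild type (log2) for the 24 probe sets, with bars of 1 SE of the fit; filled points mark the 6 probe sets whose genotypes do not overlap. Of these, 5 are of Socs2, between 1.08 and 6.55, and 1 is of Cish at 1.19; the 17 probe sets of the other genes lie between −0.58 and 0.58.

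Over the whole family 15 probe sets had a positive and 9 a negative difference, with a median of 0.15, against a median of 0.02 over all 34945. For the 18 probe sets other than those of Socs2 the median was −0.02. When a gene was represented by its brightest probe set, 7 of the 8 genes entered the test over 10762 genes and 1, Socs2, passed, against 0.604% of all tested genes, a count that the choice of the family fixed in part. At probe set level 19 of the 24 passed the filter on dim probe sets, among them 3 Socs2 sets that did so through FLT3-ITD arrays alone.

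The likeness of other genes to Socs2 and Cish was described by Pearson's r over the 8 arrays, which mostly reflects the difference between the genotypes. The 5 tested genes most like Socs2 were H2-Ab1 (r = 0.985), S100a4 (0.982), Slamf7 (0.977), H2-Aa (0.977) and Pld4 (0.975). H2-Aa and H2-Ab1 encode chains of an MHC class II molecule, S100a4 a calcium-binding protein, Slamf7 a receptor of the SLAM family and Pld4 a lysosomal enzyme. H2-Ab1 rose by 3.58 ± 0.18, S100a4 by 1.62 ± 0.15, Slamf7 by 1.23 ± 0.14 and Pld4 by 1.47 ± 0.18 (log2, SE). Slamf7 lay below the median of every wild type array, at 5.47 to 5.52, and so was tested through the FLT3-ITD arrays alone.

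The genes most like Cish were others: Chst2 (r = 0.971), Rnf19b (0.954), Klhl32 (0.946), Arhgap31 (0.945) and Mrpl13 (0.943). Chst2, which encodes a sulfotransferase, read 6.03, 5.95, 5.77 and 5.85 in wild type and 6.19, 7.59, 8.09 and 8.08 in FLT3-ITD replicates 1, 2, 3 and 037. It shared with Cish the low value of FLT3-ITD replicate 1. None of these 5 passed the test (limma adjusted p from 0.139 for Arhgap31 to 0.492 for Mrpl13). Cish itself correlated with Socs2 at 0.835, and the other tested family genes correlated with Socs2 at −0.608 (Socs6) to 0.389 (Socs5).

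The rest of the cytokine pathway was followed in 7 lists with 77 genes in all, of which 63 were tested. None was past the test upward, against 0.427% of all tested genes, and 1, Flt3, fell, against 0.177%. At an unadjusted p under 0.05 there were 12 of the 63, and 1031 of all 10762. Of the 63, 33 had a positive and 30 a negative difference, with a median of 0.07 against 0.02 over all tested genes.

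Flt3, the altered receptor, read 10.52, 10.68, 10.55 and 10.41 in wild type and 9.90, 9.13, 9.45 and 9.02 in FLT3-ITD replicates 1, 2, 3 and 037. The limma difference was −1.17 ± 0.20 (adjusted p = 0.0406), without overlap. On leaving out each sample in turn the difference stayed between −1.34 and −1.05, while the call was lost on leaving out any sample but FLT3-ITD replicate 1, with limma adjusted p up to 0.154 without wild type replicate 2. A duplication inside the coding region need not alter what the probes detect, so the genotype labels are not checked by it. Kit, the target of Socs6 named above, read −0.47 ± 0.17 (limma adjusted p = 0.427).

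The 25 measured receptors that signal through JAK included 16 tested, 11 with a positive difference. Csf2rb, the common beta chain of the receptors for interleukin-3, interleukin-5 and GM-CSF, read 7.32, 7.59, 7.64 and 7.00 in wild type and 8.13, 9.36, 8.47 and 8.74 in FLT3-ITD. Its values did not overlap, and the difference of 1.29 ± 0.27 missed the threshold (limma adjusted p = 0.103). Il6ra, the interleukin-6 receptor whose signal Socs3 dampens, read 0.69 ± 0.19 higher (limma adjusted p = 0.255). Il7r, the alpha chain of the interleukin-7 receptor, was above the array median only on 2 arrays and so was not tested. It read 5.63, 6.06, 5.16 and 6.91 in wild type and 3.08, 3.88, 3.35 and 3.48 in FLT3-ITD, a difference of −2.49 ± 0.35 without overlap, and with no filter on dim probe sets it passed (limma adjusted p = 0.0309). The receptors Epor, Ghr, Lepr, Lifr, Osmr, Il2rb and Il5ra lay below the array median on all arrays, among them the growth hormone receptor on which Socs2 acts in other tissues.

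JAK and STAT genes gave no call on their brightest probe sets. Of the 4 JAK genes, Jak3 read −0.95 ± 0.35 (limma adjusted p = 0.424) and Jak2 0.60 ± 0.28 (limma adjusted p = 0.561). All 6 measured STAT genes had a negative difference, with Stat5a at −0.44 ± 0.16 (limma adjusted p = 0.427) and Stat5b at −0.26 ± 0.17. The genotypes overlapped for both STAT5 genes, and STAT activity, which depends on phosphorylation, was not measured. Read from its probe set of largest variance instead, Stat3 differed by −1.25 and passed (limma adjusted p = 0.0267).

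Of 13 tested STAT5 targets outside the family, 10 had a positive difference and none passed, with a median of 0.25. Id1, an inhibitor of E proteins, read 6.17, 6.14, 6.15 and 6.12 in wild type and 7.17, 6.54, 6.37 and 6.74 in FLT3-ITD, a difference of 0.56 ± 0.17 without overlap (limma adjusted p = 0.323). The cytokine gene Osm read 0.61 ± 0.25 (limma adjusted p = 0.495), and the survival kinase gene Pim1 0.25 ± 0.11 (limma adjusted p = 0.531). The largest difference of the list was negative, that of Ccnd1 at −0.73 ± 0.35 (limma adjusted p = 0.561). Among the 3 with a negative difference, Mcl1 read −0.15 ± 0.12 without overlap (limma adjusted p = 0.760).

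Inhibitors outside the family and the partners of the SOCS box showed no call either. Of 12 other inhibitors, Sh2b3, which encodes the adaptor LNK, read −0.49 ± 0.22 (limma adjusted p = 0.531) and Pias1, which encodes a SUMO ligase, 0.43 ± 0.24 (limma adjusted p = 0.621). The 8 ligase partners split 4 up and 4 down, with Rbx1, a RING subunit, at 0.59 ± 0.29 (limma adjusted p = 0.578) and Nedd8 at 0.28 ± 0.14. No gene of the ligase machinery that the SOCS box recruits was past the test.

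**Figure D4:**
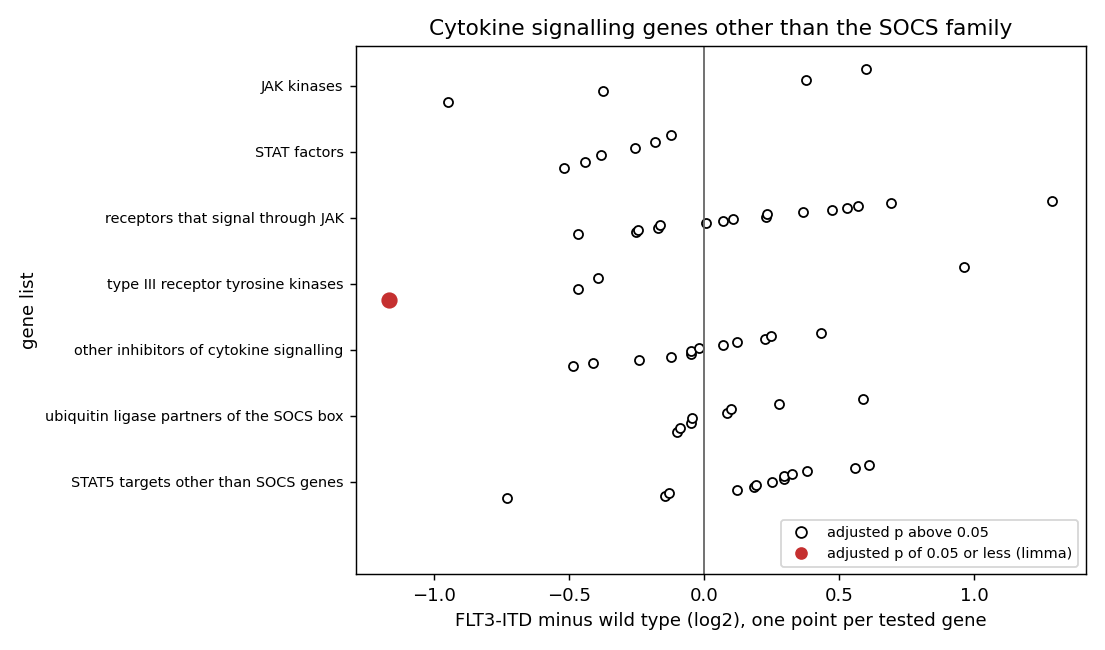
Difference FLT3-ITD minus wild type (log2) of each tested gene in 7 lists of cytokine signalling, 1 point per gene. The single filled point past the limma test is Flt3 at −1.17; the open point farthest to the right is Csf2rb at 1.29.

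Markers of other cells moved with genotype beside Socs2. Of 11 tested dendritic cell markers 5 rose (Cd74, H2-Aa, H2-Ab1, H2-Eb1 and Irf8) and Flt3 fell. The summed level of the 15 measured was 11.55 to 11.71 in wild type and 13.12 to 14.12 in FLT3-ITD (log2 of the summed values). Such a sum of unlogged values follows its brightest genes. In FLT3-ITD these were H2-Ab1, Cd74, H2-Aa and H2-Eb1, with means of 11.79, 11.43, 11.12 and 10.57. Clec10a, Cd209a, Batf3, Siglech, Bst2 and Ccr9 overlapped between genotypes. Itgax, Zbtb46 and Xcr1 read higher without overlap and had no call. In that list Cd209a lay below the array median on all arrays, and Siglech, of plasmacytoid dendritic cells, read −0.02 ± 0.11. Of 4 tested monocyte and macrophage markers, Ccr2 rose. It read 5.37, 3.68, 5.71 and 6.27 in wild type and 8.07 to 9.27 in FLT3-ITD, and lay above the array median on 5 arrays. It met the filter on dim probe sets only with the FLT3-ITD arrays, so its call is not read as support. The summed level of the 10 measured was 9.54 to 9.73 in wild type and 10.34 to 10.99 in FLT3-ITD. Adgre1, Cd14, Cx3cr1, Vcan and Mrc1 lay below the array median throughout. The erythroid markers Slc4a1 and Hbb-b2 fell, of 4 tested. The summed level of the 7 measured was 10.25 to 10.78 in wild type and 8.39 to 9.20 in FLT3-ITD, with Rhag below the array median throughout. Hbb-b2 was the brightest of them. Klf1 (−0.03 ± 0.50) and Ermap (−0.60 ± 0.44) overlapped between genotypes, while Alas2 and Epb42, not tested, read lower without overlap. Slc4a1 read 6.54 to 7.68 in wild type and 4.37 to 5.89 in FLT3-ITD. It passed the filter on dim probe sets through the wild type arrays alone, so its call is not read as support. Cd48, used in the sort, rose by 1.06 ± 0.13 (limma adjusted p = 0.00740). The part of such cells in the level of Socs2 and Cish was not tested, and in bulk samples fewer cells of a type and less RNA per cell cannot be told apart.

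Lists of other cells had no call. The range of the summed level overlapped between genotypes for mature neutrophils (10.75 to 12.96 in wild type, 8.96 to 12.18 in FLT3-ITD), B cells (9.10 to 9.29 and 9.10 to 9.28), T and NK cells (8.74 to 9.04 and 8.92 to 9.47), megakaryocytes (8.46 to 9.27 and 8.45 to 8.58), and mast cells and basophils (9.60 to 9.82 and 9.33 to 9.61). Of the brightest markers of these lists, S100a9 differed by −1.83 ± 0.91, Cd79b by 0.06 ± 0.14, Nkg7 by 0.30 ± 0.18 and Gp9 by −0.03 ± 0.14. All 6 tested neutrophil markers had a negative difference, with a median of −1.59, against 4982 negative of all 10762 tested genes. Gata2, of the mast cell and basophil list, read −0.48 ± 0.17 without overlap (limma adjusted p = 0.417). In that list 2 of the 4 tested were positive and 2 negative. Its Cpa3, below the array median on all arrays, read −1.10 ± 0.16 without overlap. FLT3-ITD replicate 1, in which Cish was low, read 7.10 for the neutrophil gene S100a9, the lowest of all samples, and 11.98 for Cd74, the highest.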

How the data were processed

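Log2 expression was deposited for 8 arrays of sorted marrow progenitors, 4 per genotype. Per the submitters' processing notes the authors made these log2 values with RMA (background correction, normalization between arrays, summary per probe set); its version and the scanner signal over background are not given in the sources used here. Labels describe Trizol extraction, NuGEN Pico amplification and biotin labelling. Array medians were 5.98 to 6.05, and the number of arrays limits the precision.

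Gene names came from the platform annotation of 2016. It gave exactly 1 gene to 34945 probe sets, several to 932 and none to 9160; 64 were controls. Current symbols were found through Entrez IDs for 34741, in a gene table of GRCm38.p6 used for names. For tests over genes, each gene was read from its probe set with the highest mean and tested if 4 or more arrays had it over their median (10762 genes). Family probe sets were fitted among all 34945 without a filter. Both fits used limma 3.58.1 in R 4.3.3 with no covariate and Benjamini-Hochberg adjustment; all adjusted p-values are from limma unless another test is named. Deviations from the genotype mean correlated weakly between genotypes, at 0.027 to 0.110 for same replicate numbers and −0.089 to 0.054 for different ones. The main fits left the samples unpaired, and the replicate block below is the fit that pairs them by number. The procedure was tested on simulated data. Figures were made with matplotlib 3.10.9 and Python 3.11.15.

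The family, the lists and the rules were chosen with earlier results of these data known. Named were all family probe sets, genes past the test in each pathway or marker list (where none passed, the 2 of smallest p, or for markers the brightest), the sorting genes, and the 5 genes most like Socs2 and Cish; others were named after their values were seen. One further pathway list is not reported here.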

Additional observations from a re-analysis of the deposited data

Results flagged for a closer look

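In 134 groups of 4 values, one per genotype and item described, 11 held a value distant from the rest of its group, where about 1 in 20 would by chance. Of the family, FLT3-ITD replicate 1 was highest for Socs2 1438470_at at 6.33 and for Socs7 1420766_at at 8.65, and lowest for Socs7 1438492_at at 6.43, and wild type replicate 3 was highest for Socs2 1446085_at at 4.68. FLT3-ITD replicate 1 was also lowest for Rnf19b at 8.23 and Mrpl13 at 8.60, both chosen for their likeness to Cish. Wild type replicate 1 was highest for Jak3 at 7.75 and for Slamf1 at 5.75. FLT3-ITD replicate 037 was highest for Rbx1 at 7.85, FLT3-ITD replicate 2 lowest for Kit at 8.77 and wild type replicate 3 lowest for H2-Eb1 at 5.88.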

How the results depend on the processing

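Over all 6 alternatives to its reading and each sample left out, Cish was higher by 1.00 to 1.50 and Socs2 by 3.43 to 6.82 (log2), the lowest as a mean over its probe sets. Read from the probe set of largest variance, Socs3 was at 0.47 and Socs7 at 0.58, against −0.34 and −0.10; Socs4 was at −0.19 there and −0.03 as a mean, against 0.09, so which probe set stands for these genes sets their sign. On leaving out each sample the differences were 6.36 to 6.82 for Socs2, −0.63 to −0.11 for Socs3, −0.07 to 0.26 for Socs4, 0.08 to 0.34 for Socs5 and −0.20 to 0.06 for Socs7. The family was chosen on this contrast, so nothing is read from its calls: 1 gene passed, and 2 with array weights (65 higher of 10762 genes) or without FLT3-ITD replicate 1 (45 of 10762); it was 0 with exact permutation tests, which cannot pass here, and 0 where a gene had to be above the median on all 8 arrays, which removes Socs2. Leaving out samples gave 1 to 2. The replicate block left 1.

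Over all genes, 46 were higher and 19 lower. With the replicate block these were 19 and 3, with the filter on all 8 arrays 18 and 7, with array weights 30 were lower, with permutation tests 0 and 0, and on leaving out samples 28 to 45 and 2 to 14 (28 higher without wild type replicate 3; 2 lower without wild type replicate 2 or 3). Over probe sets, 48 were higher and 7 lower; with the replicate block 23 and 3, with the filter 23 lower, with a variance trend 19 lower, with replicates 1 and 037 averaged 12 lower, and on leaving out samples 23 to 57 and 0 to 13. In the pathway lists the call of Flt3 was lost, at a difference that stayed at −1.17, with the replicate block (0 calls), the filter on all 8 arrays (0), permutation tests (0) and the probe set of largest variance (adjusted p = 0.0501, where Stat3 was called in its place); without a filter there were 2, Flt3 and Il7r, and leaving out samples gave 0 to 1. The call of Cd48 was lost with the replicate block (adjusted p = 0.0572) and permutation tests, at a difference that stayed at 1.06. Where not stated, the cause was not tested. Dim wild type values limit the size of the Socs2 fold.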
